A study of Rattus norvegicus with 16 samples.

Results

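A set of 9 genes of hormone signalling through cyclic AMP (cAMP) and calcium were followed in rat liver: the adrenaline receptor genes Adra1a and Adra1b, the glucagon receptor gene Gcgr, the adenylyl cyclase genes Adcy6, Adcy9 and Adcy10, the phosphodiesterase genes Pde4b and Pde4d, and the transcription factor gene Crem. They were picked by symbol, with earlier results of these data known, and all 9 of them stood among the 22587 symbols of the table. Liver RNA of male rats of the strain labelled Wistar-Wyoto, 13 weeks old, had been sequenced in 16 libraries, 4 in each of 4 groups. ADREX ozone and ADREX air rats had undergone total bilateral adrenalectomy, the removal of both adrenal glands, and SHAM ozone and SHAM air rats a sham operation. The ozone groups had breathed 0.8 ppm ozone and the air groups air, for 4 hours. Groups follow the library titles, because the treatment field of the labels gives ozone for all 8 ADREX libraries. The series asks how adrenal stress hormones control liver genes after ozone. Adrenalectomy removes adrenal adrenaline and corticosterone together, so their effects cannot be told apart here. The labels name no hormone replacement.

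In hepatocytes glucagon and adrenaline signal a need for glucose. Glucagon acts through a receptor that activates membrane-bound adenylyl cyclases, which make cAMP; cAMP activates protein kinase A, and phosphodiesterases break it down again. In the rat liver adrenaline also acts through alpha-1 receptors, which release calcium inside the cell, and both routes start glycogen breakdown. Glucocorticoids are known to shift how strongly the liver answers to either hormone.

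Reference promoter sequences were found for 7 of the 9 genes in RefSeq (build GRCr8), each running from 250 bases before to 50 bases after a transcription start. The windows below belong to the 3 genes with a called change, Gcgr with the first of its 2 windows, and to Crem, for which the 2 of 3 windows shown are those that hold the full cAMP response element, the DNA site that factors of the CREB and CREM family bind. Capitals mark the letters TGACG or TGACGTCA on either strand.
Adcy10, chr13:80284066-80284365, plus strand: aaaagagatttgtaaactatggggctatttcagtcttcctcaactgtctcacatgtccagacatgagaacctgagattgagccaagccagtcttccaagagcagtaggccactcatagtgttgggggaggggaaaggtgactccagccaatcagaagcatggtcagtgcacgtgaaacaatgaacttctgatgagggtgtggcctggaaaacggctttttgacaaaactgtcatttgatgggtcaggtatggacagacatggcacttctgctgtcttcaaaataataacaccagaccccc
Gcgr, chr10:106306553-106306852, plus strand: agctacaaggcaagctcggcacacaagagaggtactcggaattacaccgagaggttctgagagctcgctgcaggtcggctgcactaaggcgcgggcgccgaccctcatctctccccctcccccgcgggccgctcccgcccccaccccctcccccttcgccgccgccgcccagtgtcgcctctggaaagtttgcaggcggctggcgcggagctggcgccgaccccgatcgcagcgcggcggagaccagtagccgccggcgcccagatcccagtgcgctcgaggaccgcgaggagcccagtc
Adra1b, chr10:28814298-28814597, minus strand: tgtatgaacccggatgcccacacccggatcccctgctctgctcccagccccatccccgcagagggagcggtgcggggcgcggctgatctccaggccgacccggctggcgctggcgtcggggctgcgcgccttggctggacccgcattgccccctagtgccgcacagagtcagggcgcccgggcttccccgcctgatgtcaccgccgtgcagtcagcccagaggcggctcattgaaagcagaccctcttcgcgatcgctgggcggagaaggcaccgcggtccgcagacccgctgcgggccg
Crem, chr17:58984547-58984846, plus strand: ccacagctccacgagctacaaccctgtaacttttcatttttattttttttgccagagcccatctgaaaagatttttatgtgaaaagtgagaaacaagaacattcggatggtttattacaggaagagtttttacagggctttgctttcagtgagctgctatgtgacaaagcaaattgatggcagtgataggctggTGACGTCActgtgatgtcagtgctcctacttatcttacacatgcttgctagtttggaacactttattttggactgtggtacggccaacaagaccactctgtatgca
Crem, chr17:58985240-58985539, plus strand: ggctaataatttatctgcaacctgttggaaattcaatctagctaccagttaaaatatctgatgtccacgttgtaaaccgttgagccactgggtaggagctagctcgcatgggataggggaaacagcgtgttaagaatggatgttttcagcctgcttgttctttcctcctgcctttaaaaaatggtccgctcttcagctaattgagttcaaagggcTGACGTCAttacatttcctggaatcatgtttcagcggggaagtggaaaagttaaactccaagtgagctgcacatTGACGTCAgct

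The full element TGACGTCA occurred in 1 of the 7 genes, Crem, once in the first window shown and in 2 places in the other. These were 2 of the 15 windows of the 7 genes. It occurred in 1.83% of 33469 rat promoter windows of the same length. The short form TGACG, which lies inside the full element on both strands, was present in 6 of the 15 windows of the 7 genes, which were all 3 windows of Crem, 2 of 5 of Pde4d and the 1 of Adcy9, and in 21.2% of all rat windows. The glucocorticoid response element, the half-sites AGAACA and TGTTCT with 3 bases between them, was found in 0.0149% of all windows and in 0 of the windows of these genes. No match says only that these letters are missing from the window, and a match is not evidence that a factor binds.

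Recovered reads ranged from 8372891 to 14096246 per library. The labelled tissue was borne out by hepatocyte markers: the summed level of Alb, Apoa1, Ttr and 5 others lay between 104260.2 and 224299.9 RPM (reads scaled to the total of the library) in every library. The libraries also held RNA of nervous tissue. The sum of 20 neuron and oligodendrocyte markers ran from 41.5 RPM in SHAM air 2 to 4455 RPM in ADREX ozone 82, the next highest being SHAM ozone 18 at 2814 and ADREX ozone 81 at 1811. Where a call changed, results are also given without these 3 libraries, or with the log2 of that sum in the fit. Values below are normalized read counts, the deposited unit, and fold and log2 changes are on the log2(value + 1) scale with standard errors (SE). Gene changes were tested with limma over 12791 genes, and a gene is called at a Benjamini-Hochberg adjusted p under 0.05. Counts are not corrected for gene length, so levels are compared between groups and not between genes. In whole tissue, fewer cells of a type and less RNA per cell cannot be told apart.

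**Figure D1:**
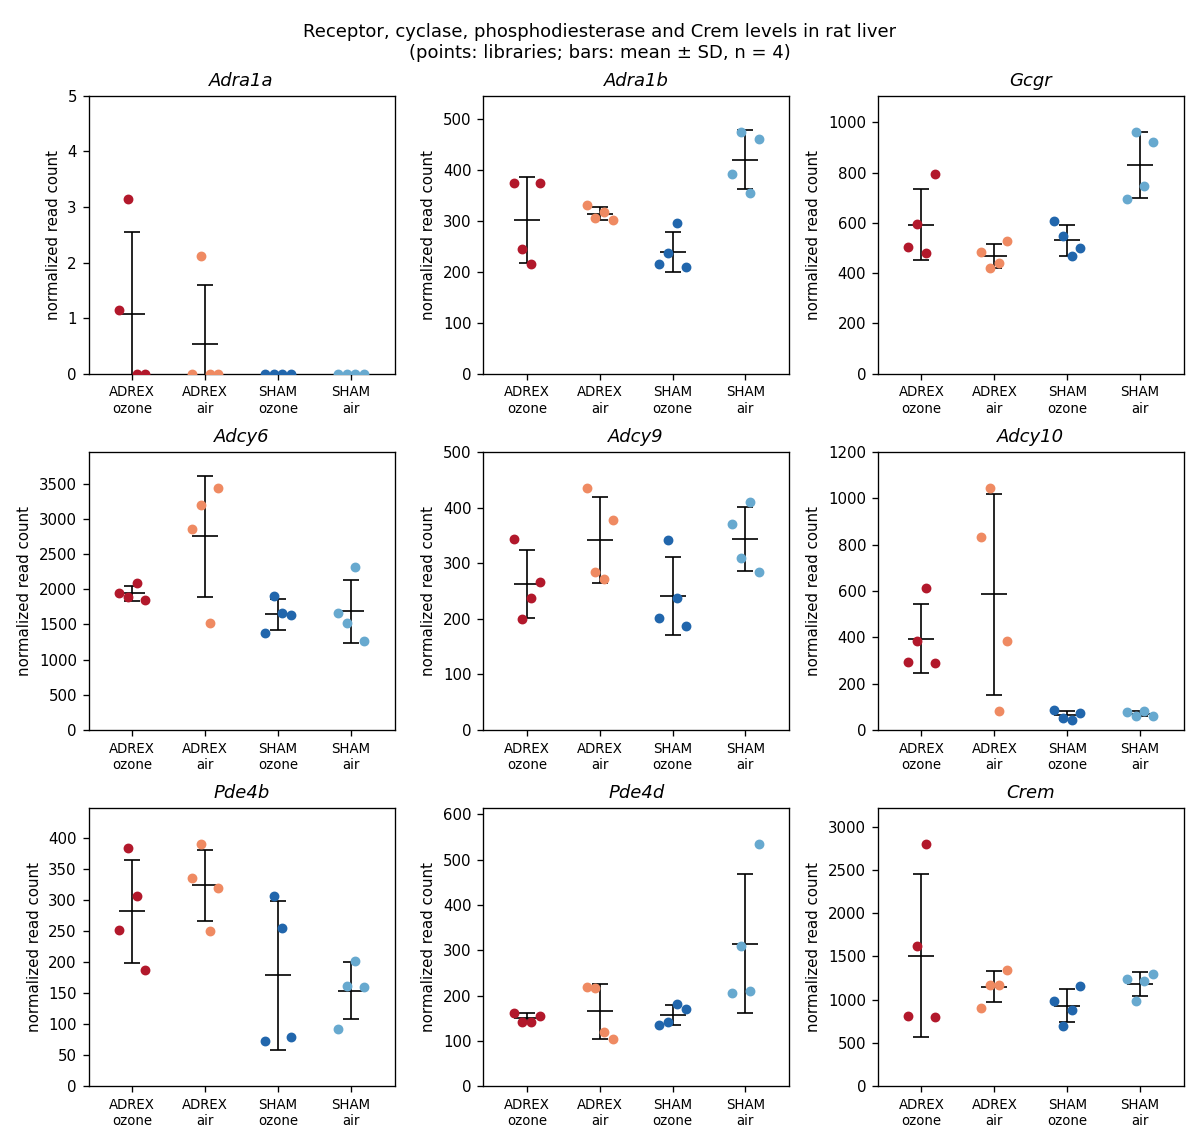
Normalized read counts (vertical axes, each starting at 0) of the 9 genes in ADREX ozone, ADREX air, SHAM ozone and SHAM air, with points for libraries and bars for the mean ± SD of 4. Adcy10 stood between 290.7 and 1044 in 7 of 8 ADREX libraries and between 43.5 and 86.1 in all 8 SHAM libraries, while Gcgr and Adra1b had their highest means in SHAM air.

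Of the receptors, the liver alpha-1B adrenergic receptor gene Adra1b fell with ozone in SHAM rats, and the glucagon receptor gene Gcgr was lower after adrenalectomy in air. Both had their highest mean in SHAM air, the control group that the 2 comparisons share.

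Adra1b had 216, 236, 296 and 209 in SHAM ozone libraries 17 to 20, against 391, 474, 354 and 462 in SHAM air libraries 1 to 4. All ozone libraries lay below all air libraries. The change was −0.81 ± 0.19 on the log2 scale, 1.76-fold lower, with a 95% interval of −1.21 to −0.41 (limma adjusted p = 0.0396). In the same SHAM libraries the 6 measured markers of sinusoidal endothelium, none at 0 throughout a group, summed to 218 to 383 RPM under ozone. In air they summed to 387 to 433 RPM. The 8 stellate cell and fibroblast markers summed to 257 to 447 RPM under ozone, against 427 to 486 RPM in air. The median of the hepatocyte sum was 161365 RPM under ozone, against 185748 RPM in air. Its ranges overlapped, at 148469 to 168897 RPM under ozone and 154804 to 224300 RPM in air. The part of these cells in the change of Adra1b was not tested. In ADREX rats Adra1b had 375, 244, 215 and 374 under ozone (libraries 81 to 84), against 331, 306, 317 and 302 in air (libraries 65 to 68). The ADREX ozone libraries fell on both sides of the ADREX air libraries, and the change was −0.10 ± 0.19 (limma adjusted p = 0.832). The difference between the ozone effects on Adra1b, 0.71 ± 0.27, did not pass (limma adjusted p = 0.282). The call in SHAM rats rested on single libraries. Its limma adjusted p was 0.0572, 0.142 and 0.116 without SHAM air 1, 2 or 4, and 0.133, 0.0867 and 0.133 without SHAM ozone 17, 18 or 20. It was also 0.0571 and 0.0537 without ADREX air 65 or 66, which enter the estimate of spread, and 0.0925 without the 3 libraries that held most neural RNA. With the neural sum in the fit the change was −0.79 (limma adjusted p = 0.0755), and with no filter on low values the limma adjusted p was 0.0551.

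In ADREX air Adra1b was below SHAM air in every library, with a change of −0.41 ± 0.19 that did not pass (limma adjusted p = 0.235). Under ozone the ADREX and SHAM libraries overlapped, at 0.30 ± 0.19 (limma adjusted p = 0.28). The means were 302 ± 84.6 in ADREX ozone, 314 ± 12.8 in ADREX air, 239 ± 39.4 in SHAM ozone and 420.3 ± 57.4 in SHAM air (SD, n = 4 each). In the order of means SHAM air was first and had a range separate from that of ADREX air, the next, while ADREX air, ADREX ozone and SHAM ozone each overlapped the one after.

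Gcgr had 486, 421, 439 and 527 in ADREX air, against 693, 962, 748 and 921 in SHAM air. The groups did not overlap, and the change was −0.82 ± 0.17, 1.76-fold lower (95% interval −1.18 to −0.46, limma adjusted p = 0.0137). This call was lost without SHAM air 2, SHAM air 4 or ADREX air 66, with limma adjusted p of 0.0523, 0.0508 and 0.053. With the neural sum in the fit it was −0.81 (limma adjusted p = 0.0429). The summed hepatocyte markers had a median of 133719 RPM in ADREX air, against 185748 RPM in SHAM air. Their ranges overlapped, at 125198 to 164434 RPM in ADREX air and 154804 to 224300 RPM in SHAM air. The part of hepatocyte content in the change of Gcgr was not tested.

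With ozone in SHAM rats Gcgr had 608, 547, 467 and 500.0, against the same SHAM air values. These groups did not overlap either, but the change of −0.64 ± 0.17 missed the threshold (limma adjusted p = 0.0674). DESeq2 on the recovered reads called it (adjusted p = 0.019), as did limma without SHAM air 3 (adjusted p = 0.0456) or ADREX ozone 84 (adjusted p = 0.036). The other 22 of 25 alternatives, edgeR among them, did not call it. It was −0.63 with the neural sum in the fit (limma adjusted p = 0.113) and −0.57 without SHAM air 2 (limma adjusted p = 0.211). ADREX ozone libraries had 503, 596, 482 and 794, against the ADREX air values of 421 to 527, a change of 0.32 ± 0.17 (limma adjusted p = 0.339). The difference between the ozone effects was 0.96 ± 0.24 with a 95% interval of 0.45 to 1.47, and did not pass over all genes (limma adjusted p = 0.127). DESeq2 called it (adjusted p = 0.0248) and edgeR did not. Under ozone ADREX and SHAM differed by 0.14 ± 0.17 (limma adjusted p = 0.602). The means were 594 ± 143 in ADREX ozone, 468 ± 47.6 in ADREX air, 531 ± 61.5 in SHAM ozone and 831 ± 131 in SHAM air (SD, n = 4 each). In the order SHAM air, ADREX ozone, SHAM ozone, ADREX air each group overlapped the next.

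Adra1a, the alpha-1A adrenergic receptor gene, was close to undetected. It had 1 read in ADREX ozone 81, 3 reads in ADREX ozone 82 and 2 reads in ADREX air 66, and 0 reads in the other 13 libraries. A count of 0 allows up to 3 reads, or 0.213 to 0.358 RPM in these libraries, a limit that covers counting error only. No difference between groups was detectable at this depth. Adra1a did not reach the filter on low values, which left 8 of the 9 genes tested. ADREX ozone 81 and 82 were among the 3 libraries richest in neural markers, whose part in these reads was not tested.

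Among the cyclases, Adcy10 was higher in adrenalectomized rats in both air and ozone, Adcy6 had its highest values in 3 of 4 ADREX air libraries, and Adcy9 did not pass in any comparison. Adcy10 encodes the soluble adenylyl cyclase, which bicarbonate and calcium activate, whereas Adcy6 and Adcy9 encode membrane cyclases that G protein-coupled receptors control.

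Adcy10 had 295, 383, 611 and 291 in ADREX ozone, against 86.1, 52.6, 43.5 and 73.7 in SHAM ozone. The lowest ADREX library was above the highest SHAM library, and the change was 2.59 ± 0.55, 6.01-fold (95% interval 1.42 to 3.75, limma adjusted p = 0.00736). It passed with each library left out in turn, with edgeR and with DESeq2, and with the neural sum in the fit (2.64, limma adjusted p = 0.0139). Without the 3 libraries that held most neural RNA it was 2.67 and the limma adjusted p was 0.0736.

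In air Adcy10 had 832, 1044, 83.4 and 384 in ADREX libraries 65 to 68, against 77.4, 62.5, 81.3 and 60.2 in SHAM. ADREX air 67 was within 3 counts of the highest SHAM air value, and the other 3 ADREX air libraries were far above it. The change was 2.54 ± 0.55, 5.80-fold (limma adjusted p = 0.0181), and without ADREX air 67 it was 3.30 ± 0.34 (limma adjusted p = 3.96e-05). The call was lost without SHAM air 2 or 4 (limma adjusted p = 0.0523 and 0.062) or without ADREX air 65 or 66 (limma adjusted p = 0.0637 and 0.0696). It was also lost in a fit to these 2 groups alone (limma adjusted p = 0.0858). The 5 cholangiocyte markers summed to 14.4 to 20.6 RPM in ADREX air, against 4.66 to 10.3 RPM in SHAM air. Under ozone these sums overlapped, at 11.6 to 14.4 RPM in ADREX and 10.9 to 14.4 RPM in SHAM. The lymphocyte sums overlapped in air but not under ozone, at 26.7 to 41.6 RPM in ADREX, against 13.0 to 18.2 RPM in SHAM. The part of these cells in the Adcy10 values was not tested.

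Ozone itself went with no called change of Adcy10, at −0.17 ± 0.55 in SHAM (limma adjusted p = 0.89) and −0.12 ± 0.55 in ADREX (limma adjusted p = 0.94). The 95% intervals were wide, −1.34 to 0.99 and −1.29 to 1.05. The group means were 395 ± 150.2 in ADREX ozone, 586 ± 434 in ADREX air, 64.0 ± 19.4 in SHAM ozone and 70.3 ± 10.5 in SHAM air. In the order of means ADREX air overlapped ADREX ozone and SHAM air overlapped SHAM ozone, while ADREX ozone and SHAM air, the middle neighbours, were separate.

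Adcy6 had 2857, 3195, 1515 and 3438 in ADREX air, against 1656, 1521, 2311 and 1262 in SHAM air. As for Adcy10, ADREX air 67 was the low one of its group, and it lay inside the SHAM range. The change of 0.67 ± 0.23 did not pass (limma adjusted p = 0.117), but it was 0.94 ± 0.18 without ADREX air 67 (limma adjusted p = 0.00605). It was also called without SHAM air 3 (0.84, limma adjusted p = 0.0392) and by DESeq2 (0.69, adjusted p = 0.0342). The other 22 of 25 alternatives, edgeR among them, did not call it. It was 0.49 with the neural sum in the fit (limma adjusted p = 0.349) and 0.54 without ADREX air 68 (limma adjusted p = 0.287). ADREX ozone had 1955, 1884, 2089.9 and 1847, against 1374, 1906, 1662 and 1634 in SHAM ozone, a difference of 0.25 ± 0.23 (limma adjusted p = 0.481). The ozone changes were −0.44 ± 0.23 in ADREX (limma adjusted p = 0.331) and −0.01 ± 0.23 in SHAM (limma adjusted p = 0.985).

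Adcy9 had 344, 200.1, 238 and 266 in ADREX ozone and 435, 285, 273 and 378 in ADREX air, and 201, 343, 237 and 187 in SHAM ozone and 371, 309.9, 411 and 285 in SHAM air. The ozone means were the lower ones after both kinds of surgery, by −0.39 ± 0.22 in ADREX (limma adjusted p = 0.382) and −0.53 ± 0.22 in SHAM (limma adjusted p = 0.225), with overlapping ranges. ADREX and SHAM differed by −0.02 ± 0.22 in air (limma adjusted p = 0.972) and 0.13 ± 0.22 under ozone (limma adjusted p = 0.732).

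**Figure D2:**
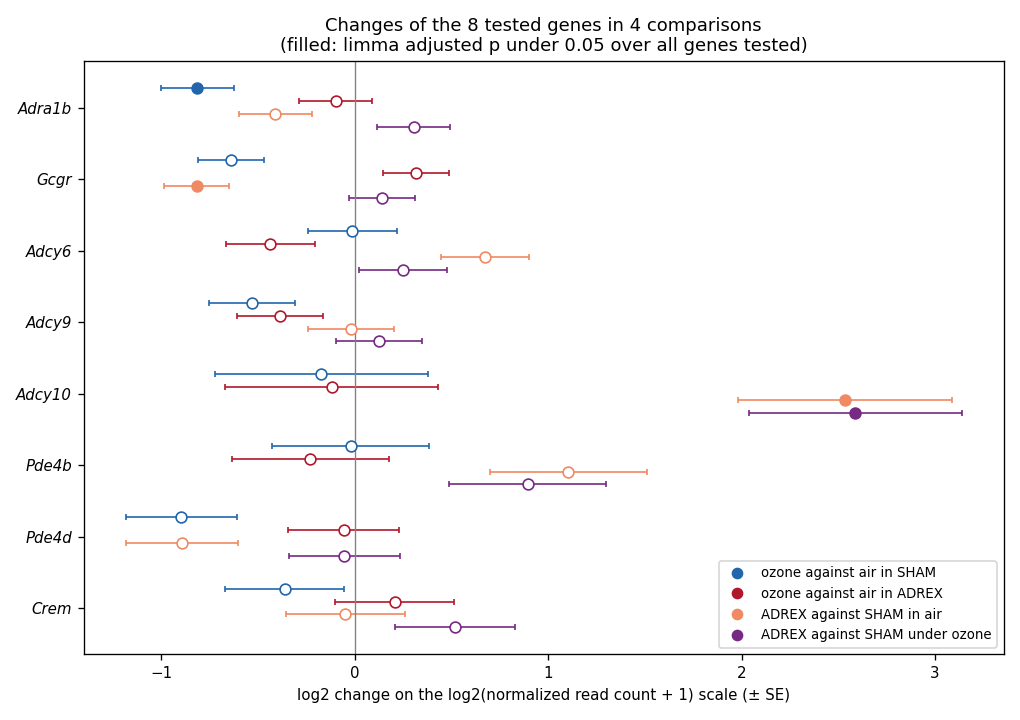
Log2 changes (horizontal axis, ± SE) of the 8 tested genes, listed down the vertical axis, in 4 comparisons shown by colour. Filled points passed the test: Adra1b for ozone in SHAM, Gcgr for adrenalectomy in air, and Adcy10 for adrenalectomy in air and under ozone.

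Pde4b and Pde4d encode cAMP-specific phosphodiesterases of 1 family, and their means after adrenalectomy in air lay on opposite sides of SHAM, though neither change passed over all genes. Pde4b had 335, 389.7, 250.2 and 319 in ADREX air, against 92.3, 161, 203 and 161 in SHAM air. The ranges were separate, and the change was 1.10 ± 0.41 (limma adjusted p = 0.147). Under ozone ADREX libraries had 252, 383, 306 and 187, against 72.5, 307, 256 and 79.6 in SHAM, which overlapped (0.90 ± 0.41, limma adjusted p = 0.146). Without SHAM ozone 18 this was 1.25 and passed (limma adjusted p = 0.0433), and without SHAM ozone 17 it was 0.56 (limma adjusted p = 0.387). The ozone differences of Pde4b were −0.23 ± 0.41 in ADREX (limma adjusted p = 0.816) and −0.02 ± 0.41 in SHAM (limma adjusted p = 0.985), where SHAM ozone libraries formed a high and a low pair.

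Markers of other cells also differed between these groups. With the neural sum in the fit the Pde4b difference was 0.58 in air (limma adjusted p = 0.444) and 0.37 under ozone (limma adjusted p = 0.51). The sum of 8 Kupffer cell and macrophage markers ran from 592 to 1337 RPM in ADREX air, against 524 to 679 RPM in SHAM air, and no marker of that list was at 0 throughout a group. The sum of 8 lymphocyte markers ran from 23.9 to 47.8 RPM in ADREX air, against 17.6 to 26.2 RPM in SHAM air. Under ozone the lymphocyte sums did not overlap, at 26.7 to 41.6 RPM in ADREX ozone, against 13.0 to 18.2 RPM in SHAM ozone. The Kupffer cell and macrophage sums ran from 636 to 1353 RPM in ADREX ozone, against 555 to 809.8 RPM in SHAM ozone. The part of these cells in the Pde4b values was not tested.

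Pde4d had 220.1, 216, 119 and 105 in ADREX air, against 207, 309, 210.0 and 534 in SHAM air. The ranges overlapped, and SHAM air 4 stood above the rest of its group. The change was −0.89 ± 0.29 (limma adjusted p = 0.101). With ozone in SHAM rats Pde4d had 136, 141, 181 and 171, below all SHAM air libraries, at −0.90 ± 0.29 (limma adjusted p = 0.122). DESeq2 called both, at adjusted p = 0.0474 and 0.0415, and limma called the change in air without SHAM air 3 (−1.05, adjusted p = 0.0456). Without SHAM air 4 the changes shrank to −0.60 in air (limma adjusted p = 0.3) and −0.60 for ozone in SHAM (limma adjusted p = 0.324). ADREX ozone had 162, 142, 142 and 155, against the ADREX air values above, a change of −0.06 ± 0.29 (limma adjusted p = 0.944). The 8 stellate cell and fibroblast markers, which include Lrat, summed to 277 to 547 RPM in ADREX air, 257 to 447 RPM in SHAM ozone and 427 to 486 RPM in SHAM air. Their part in the Pde4d values was not tested.

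The ratio of Pde4b to Pde4d within a library describes these 2 genes together and was not tested. It was 1.52, 1.80, 2.10 and 3.03 in ADREX air, against 0.446, 0.521, 0.964 and 0.301 in SHAM air, with no overlap. Under ozone it was 1.55, 2.69, 2.16 and 1.20 in ADREX libraries, against 0.533, 2.18, 1.42 and 0.466 in SHAM, which overlapped. In each of the 4 groups the library with the most neural marker RNA had the highest ratio. These were ADREX air 68 (1154 RPM), SHAM air 3 (795 RPM), ADREX ozone 82 (4455 RPM) and SHAM ozone 18 (2814 RPM). The part of neural RNA in the ratio was not tested.

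**Figure D3:**
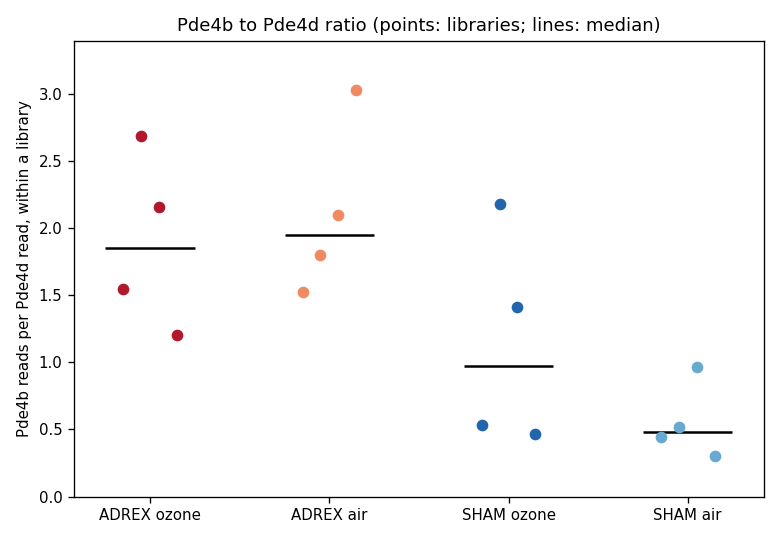
Pde4b reads per Pde4d read in each library (vertical axis, starting at 0; lines mark medians). The medians were 1.86 in ADREX ozone and 1.95 in ADREX air, against 0.974 in SHAM ozone and 0.484 in SHAM air, and all ADREX air libraries were above all SHAM air libraries.

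Crem encodes both activators and repressors of cAMP-responsive transcription, among them the repressor ICER, which starts from a promoter inside the gene. The table has 1 value per symbol, so these forms could not be separated. Crem had 814, 1624, 2794 and 802 in ADREX ozone and 907, 1169, 1175 and 1342 in ADREX air, and 983, 698, 886 and 1155 in SHAM ozone and 1239.6, 980.1, 1219 and 1296 in SHAM air. ADREX ozone was the widest group, with a pair of libraries above and a pair below all ADREX air libraries. The ozone difference was 0.21 ± 0.31 in ADREX (limma adjusted p = 0.775) and −0.36 ± 0.31 in SHAM (limma adjusted p = 0.544). Without ADREX ozone 83 the ADREX value was −0.16 (limma adjusted p = 0.798). The ADREX minus SHAM difference was −0.05 ± 0.31 in air (limma adjusted p = 0.942) and 0.52 ± 0.31 under ozone (limma adjusted p = 0.26), and no alternative called it. Without ADREX ozone 83 the difference under ozone was 0.16 (limma adjusted p = 0.707).

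Counted together, the 8 tested genes gave 4 calls over 4 comparisons. The genes were chosen with earlier results of these data known. Their shares beside those of all genes are therefore descriptions and no test of the set. For ozone against air in SHAM 1 of 8 was called, down, where limma called 1.58% of all genes tested (0.946% up, 0.633% down), edgeR 1.38% and DESeq2 4.19%. For ozone against air in ADREX 0 of 8 were called, where limma called 0.125% of all genes (0.0391% up, 0.086% down), edgeR 0.383% and DESeq2 4.46%. Of these 8, edgeR and DESeq2 also called 0. For ADREX against SHAM in air 1 was up and 1 down, where limma called 3.53% of all genes (1.49% up, 2.03% down), edgeR 2.96% and DESeq2 6.53%. Under ozone 1 was up, where limma called 12.5% (6.04% up, 6.48% down), edgeR 12.4% and DESeq2 17.1%. For the difference between the ozone effects limma and edgeR called 0 and DESeq2 called 1, Gcgr. Over all genes limma called 0.109% (0.0235% up, 0.086% down), edgeR 0.188% and DESeq2 1.94%. At an unadjusted p under 0.05 in limma stood 4 of the 8 for ozone in SHAM, beside 18.4% of all genes, and 0 of the 8 for ozone in ADREX, beside 17.8%. For ADREX against SHAM they were 6 of the 8 in air, beside 20.2%, and 2 under ozone, beside 31.2%. For the difference between the ozone effects they were 2, beside 12.9%. The median log2 change of the 8 was −0.45 for ozone in SHAM, beside 0.01 over all genes, and −0.11 for ozone in ADREX, beside 0.06. It was −0.03 for adrenalectomy in air, beside 0.04, and 0.28 under ozone, beside 0.11. Rescaling by TMM took the median of all genes under ozone to 0.01 and the split of calls from 772 up and 829 down to 32.2% up, in place of 48.2%. Adcy10 passed in that comparison after this rescaling as well.

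**Figure D4:**
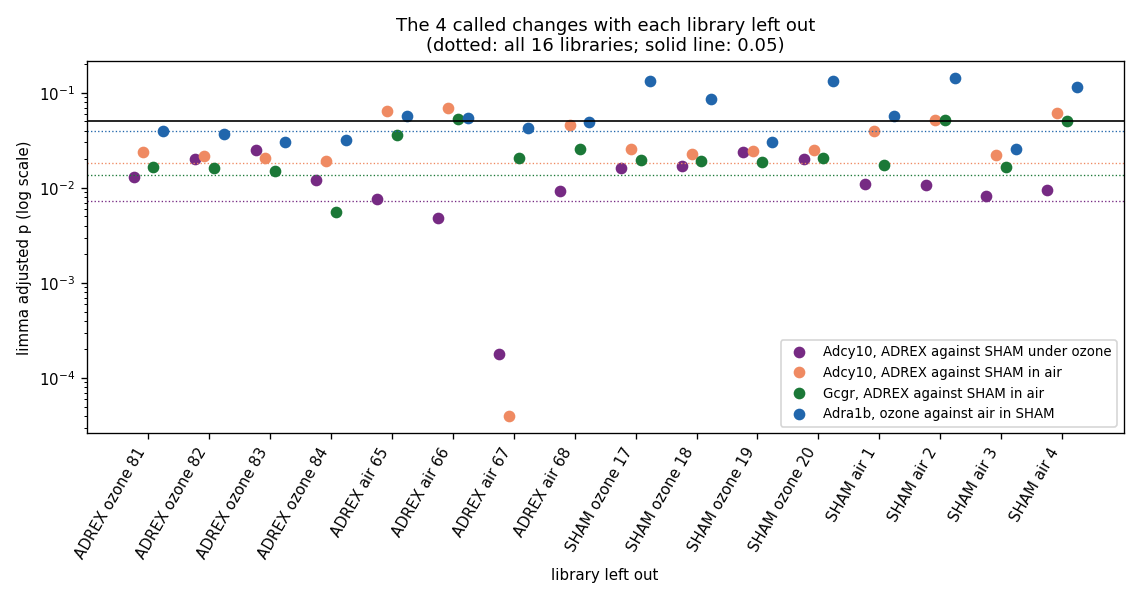
Limma adjusted p (vertical axis, log scale) of the 4 called changes after leaving out each library named on the horizontal axis. Adcy10 under ozone stayed under the line at 0.05 in all 16 fits, while Adra1b rose above it in 8 of them, reaching 0.142 without SHAM air 2.

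Other genes of the route from receptor to cAMP response were described from lists of 102 symbols, of which 99 stood in the table and 86 were tested. These lists were also chosen with earlier results known, so their shares are descriptions only. For ozone 1 of the 86 was called up and 0 down in SHAM, 1.16% beside 1.58% of all genes. In ADREX 0 were called for ozone, beside 0.125% of all genes. For ADREX against SHAM 6 were up and 1 down in air, 8.14% of the 86 beside 3.53% of all genes. Under ozone 6 were up and 5 down, 12.8% of the 86, which is near the 12.5% of all genes. The median changes of the 86 were 0.13 in air and 0.16 under ozone, beside 0.04 and 0.11 over all genes.

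Of 6 other adenylyl cyclases tested, Adcy1, a calcium-stimulated cyclase known mainly from brain, was called in both adrenalectomy comparisons. Over all genes limma called 3.53% in air and 12.5% under ozone. It averaged 326 ± 35.5 in ADREX air, against 186 ± 59.3 in SHAM air (0.84 ± 0.21, limma adjusted p = 0.0339), and 244 ± 67.5 in ADREX ozone, against 145 ± 9.7 in SHAM ozone (0.72 ± 0.21, limma adjusted p = 0.0346). These calls were lost in 10 and 9 of 25 alternatives. The neuron and oligodendrocyte marker sum had a median of 368 RPM in ADREX air, against 80.6 RPM in SHAM air. Under ozone its median was 1295 RPM in ADREX, against 398 RPM in SHAM. The part of neural RNA in the Adcy1 values was not tested apart from these alternatives. Of the 10 other phosphodiesterases tested limma called 0 in each of the 5 comparisons.

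In the calcium arm, Itpr1, an IP3 receptor that releases calcium from the endoplasmic reticulum, averaged 565 ± 79.9 in ADREX ozone, against 1563 ± 278 in SHAM ozone (−1.46 ± 0.22, limma adjusted p = 0.000987), and passed in each of the 25 alternatives. Plcb1, a phospholipase C that makes IP3, was lower in the same comparison (−0.78 ± 0.23, limma adjusted p = 0.0372). Gnai2, a G protein subunit that inhibits cyclases, was higher, 844 ± 37.9 against 533 ± 61.2 (0.67 ± 0.14, limma adjusted p = 0.00691). These were 1 up and 2 down of 15 members tested, all under ozone, where limma called 12.5% of all genes.

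Downstream, Prkar2a, a regulatory subunit of protein kinase A, averaged 846 ± 249 in ADREX ozone, against 1762 ± 179 in SHAM ozone (−1.09 ± 0.24, limma adjusted p = 0.00793). It was the only one of 17 kinase, EPAC and anchor genes called by limma there, beside 12.5% of all genes. Sik1, a kinase that cAMP induces and that restrains CREB coactivators, was higher after adrenalectomy in air, 771 ± 392 against 269 ± 67.5 (1.42 ± 0.36, limma adjusted p = 0.0357), and under ozone, 552 ± 268 against 229 ± 68.6 (1.18 ± 0.36, limma adjusted p = 0.0401). It lost the call in 9 and 10 alternatives. Of 14 liver genes known to respond to cAMP, Igfbp1, Junb and Sds were higher in ADREX air, and Igfbp1 was higher while Dusp1 and Tdo2 were lower in ADREX ozone. Over all genes limma called 3.53% in air and 12.5% under ozone. Igfbp1, an IGF carrier, averaged 4939.8 ± 172 in ADREX air, against 1207 ± 597 in SHAM air (2.16 ± 0.42, limma adjusted p = 0.00893). Sds, serine dehydratase, was the 1 gene of all lists called for ozone in SHAM, at 3497 ± 927 in SHAM ozone, against 338 ± 112 in SHAM air (3.39 ± 0.56, limma adjusted p = 0.00766). Several of these genes are also known to answer to glucocorticoids or insulin. Of 5 genes of glycogen turnover, Pygl, the liver glycogen phosphorylase, averaged 1879 ± 736 in ADREX air, against 5013 ± 556 in SHAM air (−1.48 ± 0.31, limma adjusted p = 0.015). Gys2, the liver glycogen synthase, averaged 4968 in ADREX air, against 1396 ± 158 in SHAM air (1.73 ± 0.35, limma adjusted p = 0.0112). It was also called, up, in ADREX ozone against SHAM ozone (1.25 ± 0.35, limma adjusted p = 0.0275). For ADREX against SHAM these were 1 up and 1 down of 5 in air, beside 3.53% of all genes. Under ozone 1 of 5 was up, beside 12.5%. Of 8 receptor genes and regulators, Arrb2, an arrestin that uncouples receptors from G proteins, was called up in ADREX ozone against SHAM ozone (0.87 ± 0.26, limma adjusted p = 0.0395). That is 1 of 8, beside 12.5% of all genes.

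The patterns over the 16 libraries most like that of each gene are given as Pearson correlations of log2(value + 1). They describe shared levels only, because all genes share the libraries and their tissue makeup. Adcy10 was closest to Hsdl2 (0.94), Maff (0.91) and Tgfbi (0.91), and Adcy6 to Trpm4 (0.94), Pex26 (0.90) and Phtf2 (0.90). Adra1b was closest to St5 (0.92), Pdzrn3 (0.91) and Srgap2 (0.90), and Gcgr to Coro1c (0.88), Abcf2 (0.88) and Hdac2 (0.85). Pde4d was closest to Lrat (0.91), a stellate cell gene of retinoid storage, then Kansl1 and Mtmr3 (0.88 each), and Pde4b to Ednrb (0.87), Antxr1 and Zdhhc14 (0.86 each). Adcy9 (Ints3, 0.81; Mettl4, 0.79; Arap3, 0.78) and Crem (Zfp637, 0.82; Zfand2a, 0.76; Bet1l, 0.74) had less similar neighbours.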

How the data were processed

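Liver mRNA was sequenced on a NextSeq 500, per the labels' protocols. The tools that the submitters' processing notes name are Partek and DESeq2, and the build is rn6; aligner, counter, annotation, versions and strand setting were "not given in the sources used here". Reads of overlapping or antisense genes therefore cannot be told apart. Each deposited signal value is the read count of a gene over the size factor that the authors used for that library. Dividing by each column's step gave whole reads for 100% of values, within 0.01; 0 columns were left out.

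Genes with a mean of at least 14.7 (1 CPM at the median column total), 12791 in all, were tested on log2(value + 1) with limma 3.58.1 in R 4.3.3, two-sided, with 4 group means and no covariate. The alternatives were a pseudocount of 10, no or a stricter filter (73.4, or 5 CPM), TMM rescaling, fits to 2 groups, edgeR 4.0.16 and DESeq2 1.42.0 on recovered reads, the neural score (log2 of the summed RPM of 20 markers, plus 1) as a covariate, and leaving out libraries. The test was checked on simulated counts. Members, lists and alternatives were chosen with earlier results of these data known. Named are the 9 members, list genes that were called (up to 4 per list in each comparison) and the 3 genes most correlated with each member; 1 further gene of that rule is not reported here. The labels do not say whether the libraries of a group come from separate animals, so p-values measure only the spread between these samples, which may be technical.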

Additional observations from a re-analysis of the deposited data

Results flagged for a closer look

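Adra1a in ADREX air 66 was flagged as far from the others of its group: 2.12 normalized counts, from 2 reads, against 0 in each of the other 3 ADREX air libraries. It was the 1 library flagged in 34 sets of 4 libraries screened. For values that vary continuously chance alone flags about 1 set in 20, a rate that does not apply here. With 0 in the other 3 libraries any value above 0 is flagged. The value is below the 3 reads that a count of 0 allows. No member passed limma's test for a difference between the ozone effects in ADREX and SHAM.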

How the results depend on the processing

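Of 992 single-gene values under the alternatives, 921 kept their direction and side of the threshold, 20 lost a call, 11 gained one and 40 changed sign; the value with all libraries was not called in any of these 40, and the cause was not tested. No paired analysis was possible because the groups share no replicate numbers. The difference between ozone effects has no fit to 2 groups.

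Members called for ozone in SHAM numbered 0 with no filter (a larger number of genes tested), with the neural covariate, and without the 3 libraries that held most neural RNA, 3 with DESeq2, and 0 to 2 with single libraries left out. For ADREX against SHAM in air they numbered 1 in the fit to 2 groups, 4 with DESeq2 and 0 to 4 with libraries left out. Under ozone they numbered 0 without the 3 libraries and 1 to 2 with single libraries left out, and for the difference 1 with DESeq2.

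All genes called for ozone in SHAM numbered 536 with DESeq2, 107 without the 3 libraries and 38 (without SHAM ozone 20) to 658 (without SHAM air 3). For ozone in ADREX, 16 with all libraries, they numbered 26 with a pseudocount of 10, 36 with no filter, 2 in the fit to 2 groups, 49 with edgeR, 570 with DESeq2, 27 with the neural covariate, 1 without the 3 libraries and 0 to 50 with libraries left out; 31.2% were up, 18.2% of 22 after TMM rescaling, 50% with a pseudocount of 10 and 63.9% with no filter, so these calls had no stable direction. For ADREX against SHAM in air they numbered 212 in the fit to 2 groups, 835 with DESeq2, 194 with the neural covariate and 194 (without ADREX air 66) to 1004 (without SHAM air 3). Under ozone they numbered 479 without the 3 libraries and 787 to 1848 with libraries left out. For the difference they numbered 24 with edgeR, 248 with DESeq2 and 3 to 33 with libraries left out; 21.4% were up, and 5% of 20 after TMM rescaling.

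Sign changes on the log2 scale were these. For ozone in SHAM, Pde4b was 0.21 with edgeR and 0.21 with DESeq2, and −0.38 to 0.31 with libraries left out; Adcy6 was −0.14 to 0.15. For ozone in ADREX, Pde4d was 0.073 with the neural covariate and Adcy10 0.043 without the 3 libraries; with libraries left out Adcy10 ran from −0.88 to 0.33, Pde4d from −0.25 to 0.11, Adra1b from −0.22 to 0.049 and Crem from −0.16 to 0.44. For ADREX against SHAM in air, Crem was 0.032 with the neural covariate and −0.14 to 0.059 with libraries left out, and Adcy9 −0.14 to 0.082. Under ozone Adcy9 was −0.083 and Pde4d 0.087 with the neural covariate; with libraries left out Adcy9 ran from −0.012 to 0.31, Pde4d from −0.12 to 0.017 and Gcgr from −0.0088 to 0.23. For the difference Adcy10 was −0.038 with TMM, −0.52 with edgeR, −0.49 with DESeq2 and −0.71 to 0.50 with libraries left out, and Pde4b −0.54 to 0.15.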

Other observations

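ADREX air 67, low for Adcy10 and Adcy6, was placed on the 1601 genes that limma called for ADREX against SHAM under ozone, a comparison in which no air library is a member of either group. For 53.5% of these genes ADREX air 67 lay on the ADREX side of the midpoint between the ozone groups, against 58.9%, 61.7% and 72.7% in ADREX air 65, 66 and 68 and 27.5% to 32.9% in the SHAM air libraries. The mean log2 distance from that midpoint, signed toward ADREX, was 0.06 in ADREX air 67. It was 0.22, 0.31 and 0.33 in ADREX air 65, 66 and 68, and −0.38 to −0.20 in the SHAM air libraries. All 16 libraries, the air libraries included, entered the estimate of spread behind the 1601 calls. These positions were looked up after the low values were seen and were not tested.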
